A study of Mus musculus with 6 samples.

Results

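Lipid droplet proteins and lipases were examined in livers of mice without sphingosine-1-phosphate (S1P) lyase, the enzyme encoded by Sgpl1 that breaks S1P down irreversibly. The set holds 10 genes: the perilipins Plin2, Plin3, Plin4 and Plin5, the CIDE genes Cidea and Cideb, the triglyceride lipase Pnpla2 with its co-activator Abhd5 and its inhibitor G0s2, and the monoglyceride lipase Mgll. Every probe set annotated with exactly 1 of these symbols was taken, 17 of the 45101 on the array, and all 10 of 18194 genes with such a probe set were found. RNA was taken from the livers of 3 S1P lyase knockout and 3 wild-type (WT) mice and measured on 1 Affymetrix array per animal. All 6 animals had a mixed C57BL6 and 129sv background and were untreated, per the labels. Their age, sex and feeding state, and whether the deletion was confined to any tissue, are not stated. Values are log2 units throughout, so a difference of 1 is a change by a factor of 2.0, and replicates are separate mice numbered only to name them.

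Hepatocytes keep surplus fatty acids as triglyceride in lipid droplets, whose surface is coated by perilipins. CIDE proteins help droplets grow and, in the liver, load lipid onto lipoproteins. Pnpla2 (ATGL) removes the first fatty acid from triglyceride, Abhd5 (CGI-58) stimulates it, G0s2 inhibits it, and Mgll releases the last fatty acid from monoglyceride and also degrades the endocannabinoid 2-arachidonoylglycerol.

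The labels were checked first. Sgpl1 read 2.46, 2.99 and 2.87 log2 in knockout livers, against 6.65, 6.90 and 6.71 in WT livers, on its brighter probe set, so every knockout liver lay far below every WT liver. Where its probes lie relative to the deleted stretch is not stated. The tissue was liver by its markers: the mean of 8 tested hepatocyte markers was 13.0 to 13.1 log2 in knockout arrays and 13.0 to 13.2 in WT arrays. Array controls also lay apart by genotype. The 3' minus 5' signal, which grows as RNA breaks down or labelling stays short, was higher in knockout livers for Actb by 0.45, for Gapdh by 0.47 and for Pcx by 1.01 log2, and the bacterial poly-A control RNAs were higher by 0.75 (exact permutation tests, two-sided, p = 0.1 each, the smallest that 3 against 3 arrays allow). Cell type markers lay apart as well: the mean of 9 neutrophil markers was 10.02 to 10.33 log2 in knockout arrays, against 5.54 to 5.98 in WT arrays. That of 6 markers of lipid-laden macrophages, cells that hold droplets themselves, was 8.49 to 8.79 in knockout and 6.55 to 7.33 in WT. The part of any of these in the results below was not tested.

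Mgll fell in the knockout livers, and most other genes of the set did not pass the test. By their brightest tested probe set, 2 of 10 genes fell (Mgll and Cidea), 0 rose and 8 did not pass (limma, Benjamini-Hochberg adjusted p under 0.05 over all 27022 probe sets tested). Cidea was bright enough to test only through its WT level, so its place in that count supports nothing. At an unadjusted limma p under 0.05, 2 of the 10 genes were higher and 3 lower. Of all 13370 genes tested, 2325 were higher and 2235 lower at that level. At the adjusted threshold 18.2% of all 13370 genes were called, 10.3% higher and 7.85% lower, so the members' count of calls does not stand out from that background. The median difference of the 10 genes was -0.09 log2, and that of all genes -0.05. Of the 15 member probe sets bright enough to test, 4 were called, all lower, beside 17.9% of all probe sets tested (10.1% higher, 7.82% lower). The 4 were 3 probe sets of the single gene Mgll and that of Cidea. Knockout and WT values did not overlap in 8 of those 15, with knockout above in 2 and below in 6, beside 40% of all probe sets tested (18.8% above, 21.2% below). The same 4 are among the 6 below. In whole liver, fewer cells of a type and less RNA per cell cannot be told apart.

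**Figure D1:**
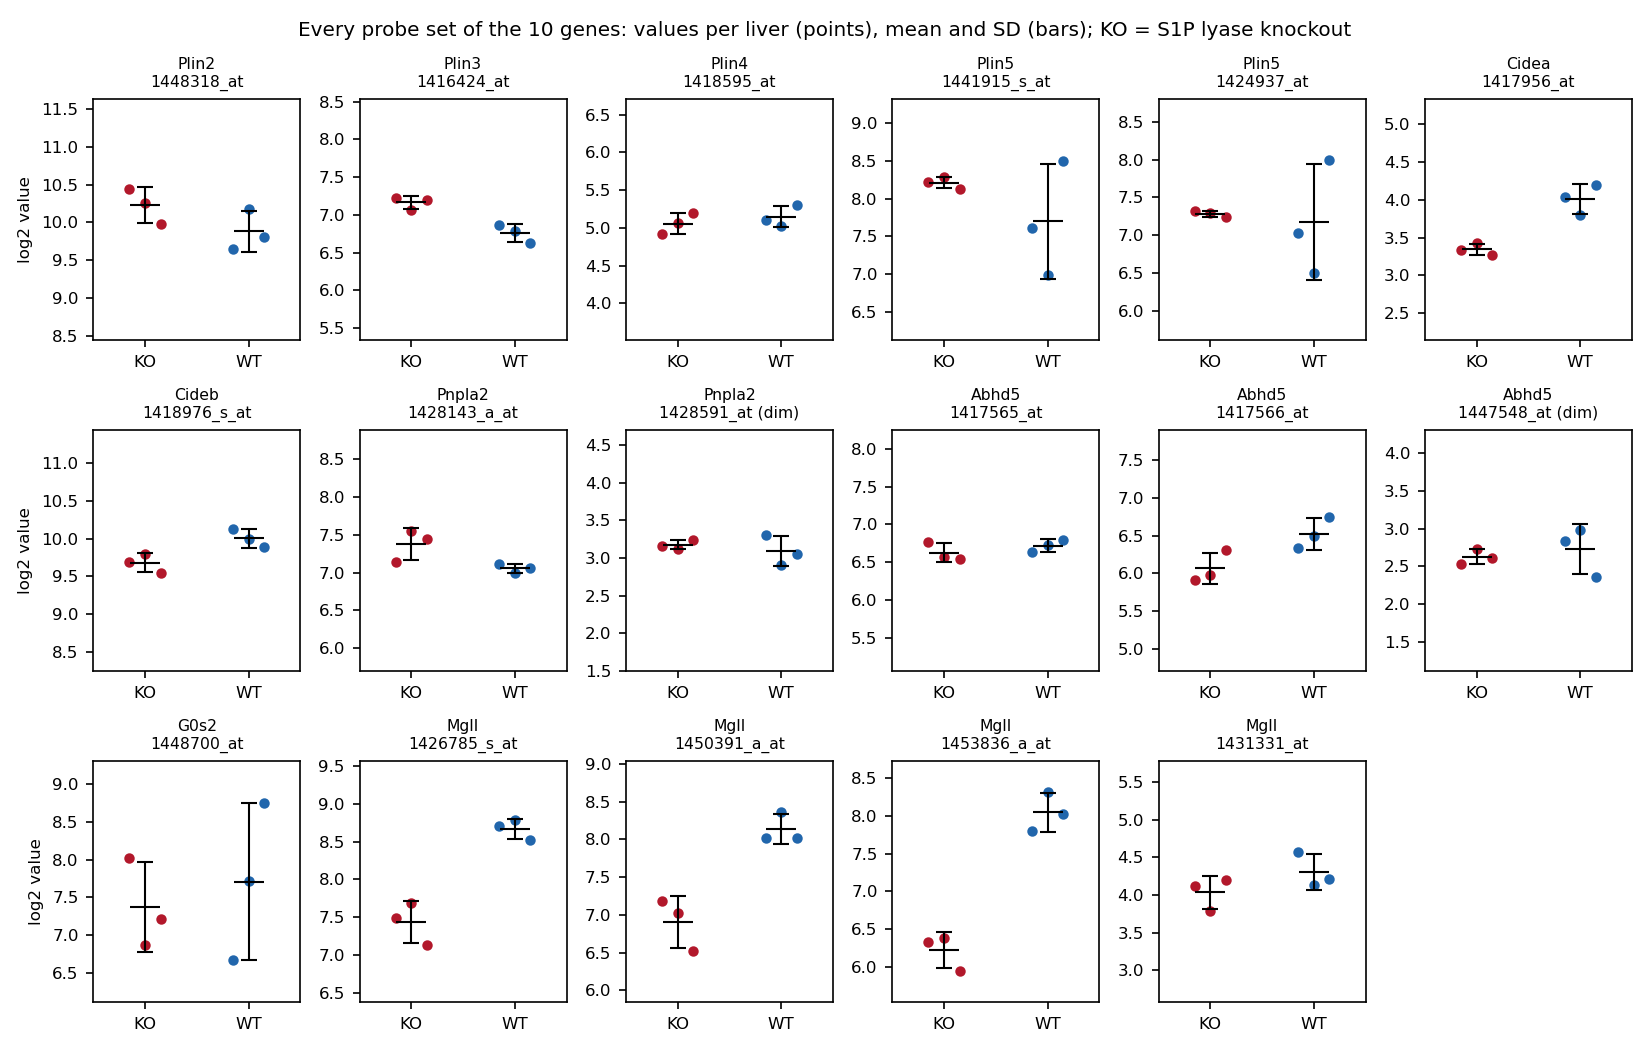
Values of all 17 probe sets in each liver (log2, vertical axis of the same width in every panel), S1P lyase knockout (KO) left of WT, with mean and SD (n = 3). Mgll is lower in every knockout liver on 3 of its 4 probe sets, while the WT livers spread widely for G0s2 (SD 1.04) and for Plin5 (SD 0.76 on both probe sets).

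Promoter sequences of Mgll, which fell most, and of Plin2 and Plin5, the perilipins of hepatocytes and of oxidative tissues, are shown to place the members in the genome. They run from 250 bases before to 50 after the annotated start and come from a RefSeq promoter table on GRCm38.p6, in which 9 of the 10 genes were matched. Capitals mark the nuclear receptor half-site AGGTCA, the E-box CACGTG and the TATA letters TATAA, each searched on both strands, and none of the marked stretches overlap.
Mgll, chr6:88724162-88724461, plus strand: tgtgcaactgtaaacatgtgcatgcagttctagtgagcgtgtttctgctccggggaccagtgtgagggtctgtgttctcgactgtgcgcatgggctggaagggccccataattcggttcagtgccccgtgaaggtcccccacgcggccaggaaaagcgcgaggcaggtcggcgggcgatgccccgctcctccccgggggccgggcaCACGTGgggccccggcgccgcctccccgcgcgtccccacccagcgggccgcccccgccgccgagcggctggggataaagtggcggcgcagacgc
Plin2, chr4:86670010-86670309, minus strand: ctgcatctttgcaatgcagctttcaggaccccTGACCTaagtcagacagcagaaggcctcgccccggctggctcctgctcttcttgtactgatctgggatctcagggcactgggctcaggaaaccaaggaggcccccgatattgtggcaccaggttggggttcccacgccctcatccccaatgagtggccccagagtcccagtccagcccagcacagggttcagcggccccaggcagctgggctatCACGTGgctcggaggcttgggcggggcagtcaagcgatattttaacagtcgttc
Plin5, chr17:56117499-56117798, minus strand: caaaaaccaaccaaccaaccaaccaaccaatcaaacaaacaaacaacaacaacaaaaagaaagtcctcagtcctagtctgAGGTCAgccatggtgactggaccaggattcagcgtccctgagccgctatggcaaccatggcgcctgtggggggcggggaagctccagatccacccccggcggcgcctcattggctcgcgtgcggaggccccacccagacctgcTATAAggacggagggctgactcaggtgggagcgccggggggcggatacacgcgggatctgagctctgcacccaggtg
The E-box letters stand in this Mgll promoter and in the Plin2 promoter and in no other of the 11 listed promoters of the 9 genes, against 7.15% of all 32851 promoters. The half-site letters stand in 4 of the 11, against 16.3% of all promoters. These are the promoters of Plin2, of Abhd5 and of both listed Plin5 starts, whose sequences overlap in part, so the 4 are not of 4 separate genes. The TATA letters stand in 3 of the 11, against 24.9%. A second Mgll start and a second Plin5 start are also listed. These matches describe the letters only.

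Mgll was read by 4 probe sets. The brightest had 7.48, 7.68 and 7.13 log2 in knockout livers, against 8.71, 8.78 and 8.52 in WT livers. All knockout livers lay below all WT livers, by more than the spread within either group. The mean was 7.43 ± 0.28 in knockout and 8.67 ± 0.14 in WT (SD, n = 3 each), 2.36-fold lower in knockout (difference -1.24, 95% interval -1.61 to -0.87, limma adjusted p = 0.00205).

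A second probe set read 7.18, 7.02 and 6.51 log2 in knockout and 8.02, 8.36 and 8.02 in WT, 2.34-fold lower in knockout (difference -1.23, 95% interval -1.67 to -0.79, limma adjusted p = 0.00448). The third read 6.32, 6.39 and 5.95 in knockout and 7.80, 8.31 and 8.02 in WT. This was the widest gap of the set, 3.55-fold lower in knockout (difference -1.83, SE 0.18, limma adjusted p = 0.000569). On each of these 3 probe sets knockout replicate 3 was the lowest of the 6 arrays. The dimmest probe set, at 4.13, 3.78 and 4.19 in knockout and 4.57, 4.13 and 4.21 in WT, overlapped between groups and did not pass (difference -0.27, 95% interval -0.64 to 0.10, limma adjusted p = 0.273). The 4 probe sets share the same RNA and are not independent measurements, and the brightest may pick up related transcripts too, by the suffix of its identifier, as may those of Cideb and the brighter of Plin5. The fall on the 3 brighter probe sets was called without any single array and with quantile normalization, median centring or centring on hepatocyte markers, with adjusted p from 0.00148 to 0.0199 when 1 array was left out.

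The genes whose 6 values, centred on their own WT mean, lay closest to those of the brightest Mgll probe set were Afm, Mettl7a1 and Dpp4. Their root mean square difference from Mgll over the 6 arrays was 0.06, 0.09 and 0.10 log2. Because they were picked by this closeness on the same arrays, a fall like that of Mgll was fixed in advance. Their differences and p-values are given as description only. Afm, which encodes the plasma protein afamin, fell by 1.23 log2, Mettl7a1, whose product resides on droplets and the endoplasmic reticulum, by 1.32, and the peptidase gene Dpp4 by 1.14 (limma adjusted p = 0.00175, 0.00295 and 0.00247).

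Among perilipins, none passed the test. Plin2, the main droplet coat of hepatocytes, had 10.45, 10.26 and 9.98 log2 in knockout livers, against 9.65, 10.18 and 9.81 in WT livers. WT replicate 2 lay above knockout replicate 3, so the groups overlapped. The difference was 0.35, with a 95% interval from -0.05 to 0.74 (limma adjusted p = 0.193).

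Plin3, a perilipin that moves between cytosol and nascent droplets, came closest to the threshold. It read 7.22, 7.07 and 7.20 log2 in knockout and 6.86, 6.79 and 6.63 in WT. All knockout livers were above all WT livers, by a mean of 0.41 (1.32-fold, 95% interval 0.13 to 0.68, limma adjusted p = 0.0519). The adjusted p was 0.0468 when each gene was represented by 1 probe set, a fit that called 18.6% of genes. It ran from 0.0386 to 0.203 over all alternatives, and centred on the poly-A controls the difference was -0.34.

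Plin4, a perilipin best known from adipocytes and muscle, read 4.92, 5.06 and 5.19 in knockout and 5.11, 5.03 and 5.30 in WT. The groups overlapped almost fully (difference -0.09, 95% interval -0.39 to 0.21, limma adjusted p = 0.66).

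Plin5, which ties droplets to mitochondria in oxidative tissues, varied widely among WT livers. Its brighter probe set read 8.22, 8.29 and 8.13 log2 in knockout livers, which were tightly grouped, and 7.61, 6.99 and 8.51 in WT livers. The knockout values lay between those of WT replicates 1 and 3 (difference 0.51, 95% interval -0.23 to 1.26, limma adjusted p = 0.3). The other probe set gave the same order of WT livers, at 7.32, 7.29 and 7.24 in knockout and 7.03, 6.49 and 8.002 in WT (difference 0.11, limma adjusted p = 0.832). Without WT replicate 3 the brighter probe set differed by 0.91 and passed (adjusted p = 0.0201), so that 1 WT liver decides this call. Without WT replicate 2 the other probe set's difference was -0.23. Plin4 and Plin5 are adjacent protein-coding genes on chromosome 17, and 7 protein-coding genes lie between Plin5 and Plin3.

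Of the 2 CIDE genes, Cideb did not pass the test, and the dim Cidea passed but was tested only through its WT level. Cideb, the CIDE protein of hepatocytes, read 9.70, 9.80 and 9.55 log2 in knockout, against 10.13, 9.99 and 9.89 in WT. The groups did not overlap, but the difference of -0.32 (95% interval -0.59 to -0.05) missed the threshold (limma adjusted p = 0.0917).

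Cidea, abundant in brown fat and scarce in normal liver, read 3.33, 3.43 and 3.28 in knockout and 4.04, 3.80 and 4.19 in WT. All knockout livers lay below all WT livers, and the fitted difference was -0.67 log2 (SE 0.13, limma adjusted p = 0.00962). Its mean over all arrays, 3.68, was just above the 3.58 below which probe sets were left out, and its knockout mean of 3.34 was below it. It was therefore tested only because of its WT level and was not tested with the filter at the 60th percentile. The size of its difference is uncertain, since no detection call was at hand to tell its knockout level from background. The brown fat marker Ucp1 was also dim, at a mean of 3.51 in knockout and 3.87 in WT (limma adjusted p = 0.226), and Elovl3 lay under the filter.

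Pnpla2, Abhd5 and G0s2, the lipolytic core at the droplet, had no probe set that passed the test. Pnpla2 read 7.14, 7.55 and 7.45 log2 in knockout, against 7.11, 6.99 and 7.06 in WT. Every knockout liver was above every WT liver, the closest pair by a narrow margin, and the difference of 0.32 (95% interval 0.01 to 0.64) did not pass (limma adjusted p = 0.14). Its other probe set, at 3.12 to 3.24 in knockout and 2.91 to 3.31 in WT, was too dim to test.

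Abhd5 was read by 3 probe sets that differed. The brightest had 6.77, 6.57 and 6.54 in knockout and 6.63, 6.73 and 6.80 in WT, with overlap (difference -0.09, 95% interval -0.37 to 0.19, limma adjusted p = 0.626). The next had 5.91, 5.98 and 6.31 in knockout and 6.33, 6.50 and 6.75 in WT, where knockout lay below WT without passing (difference -0.46, 95% interval -0.83 to -0.09, limma adjusted p = 0.0819). It passed as lower with quantile normalization (difference -0.53, adjusted p = 0.0392) and with array quality weights (difference -0.48, adjusted p = 0.0412), and at -1.21 on the poly-A scale. The third, at 2.53 to 2.73 in knockout and 2.36 to 2.99 in WT, was too dim to test.

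G0s2, the inhibitor, varied most among the 10 genes. It read 8.03, 6.86 and 7.21 log2 in knockout and 6.67, 7.71 and 8.75 in WT. The WT livers alone spanned more than the knockout livers, and the groups overlapped fully (difference -0.34, 95% interval -1.47 to 0.79, limma adjusted p = 0.655). Its within-group SD of 0.85 was above that of 99.4% of all tested probe sets, whose median was 0.17. That of the brighter Plin5 probe set, 0.54, was above 97.9%. The G0s2 interval, which reaches to -1.47, still holds a difference as large as that of the brightest Mgll probe set.

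Differences between partner genes taken within each array do not depend on the scale of the arrays. Abhd5 minus G0s2 was -1.26, -0.29 and -0.67 in knockout and -0.04, -0.98 and -1.95 in WT. Its mean was higher in knockout by 0.25 (exact permutation test, two-sided, p = 0.7). Pnpla2 minus G0s2 differed by 0.66 (exact p = 0.5) and Plin2 minus Plin5 by -0.17 (exact p = 0.8). For all 3 pairs the groups overlapped, and the p adjusted over the 3 was 0.8 for each.

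**Figure D2:**
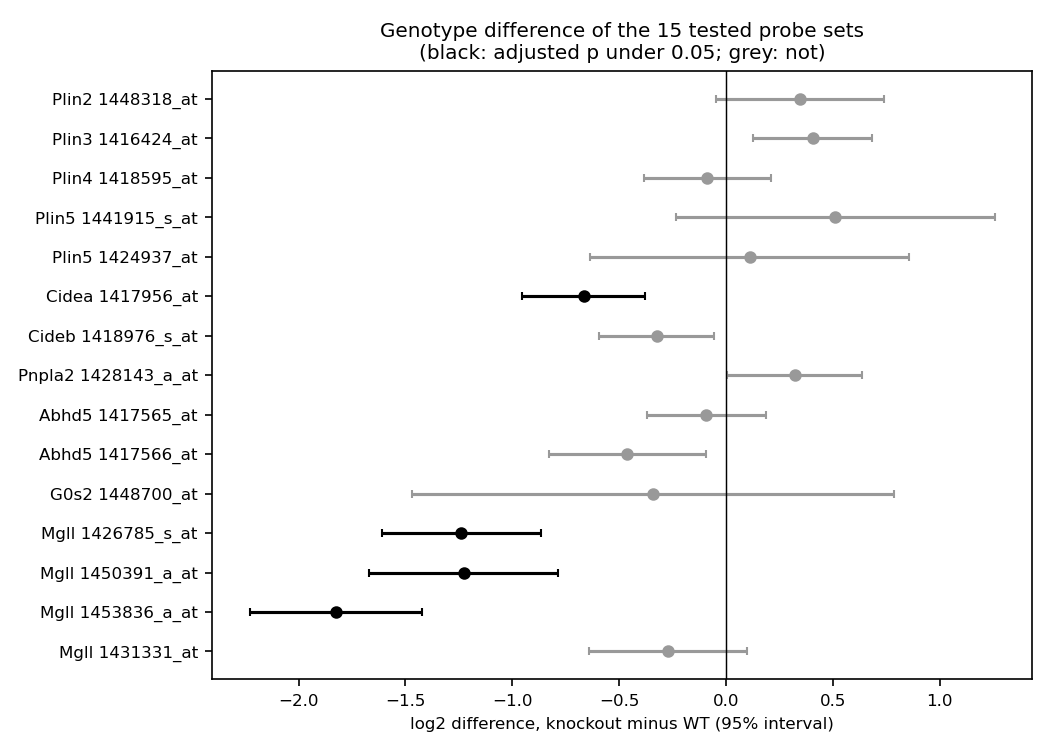
Log2 difference, knockout minus WT, of the 15 tested probe sets with 95% intervals from limma; black points passed an adjusted p of 0.05 and grey points did not. The 3 brighter Mgll probe sets lie between -1.23 and -1.83, and the intervals of G0s2 and Plin5 are the widest.

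Other genes of neutral lipid handling were set beside these. Every list count below stands beside 10.3% of all 13370 tested genes that rose and 7.85% that fell. Of other neutral lipid lipases, 6 of 18 fell, 0 rose and 12 did not pass (limma). Their median difference was -0.43 log2, against -0.05 for all genes. At an unadjusted limma p under 0.05, 9 of the 18 were lower and 2 higher, beside 2235 lower and 2325 higher of all 13370. The carboxylesterase gene Ces1f read 4.28, 4.42 and 3.94 in knockout and 6.50, 6.99 and 7.22 in WT, a fall of 2.69 (limma adjusted p = 0.000211), on a probe set that can read related transcripts. Ces1g, a carboxylesterase linked to triglyceride secretion, fell by 2.56, Ces1d, which hydrolyses stored triglyceride, by 1.31, and the arylacetamide deacetylase Aadac by 1.002 (limma adjusted p of 0.00183 or lower). The other 2 that fell, named after their values were seen, were Lipg, a secreted endothelial lipase, by 1.27 and the carboxylesterase gene Ces2a by 1.49 (limma adjusted p = 0.00201 for each). All 6 calls were kept without any single array. Ces1f, Ces1g, Ces1d and Ces2a belong to 1 gene family, so the 6 are not all unrelated genes.

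Other lipid droplet proteins moved both ways: 3 of 12 fell, 2 rose and 7 did not pass (median -0.04). Fitm1, which helps partition triglyceride into droplets, fell by 0.67 log2 (SE 0.12, limma adjusted p = 0.00948), and the droplet-associated hydrolase Ldah by 0.83 (SE 0.18, limma adjusted p = 0.0153). The hepatic droplet protein Hsd17b13 rose by 0.52 (limma adjusted p = 0.0238) and Rnf213, a ubiquitin ligase found on droplets, by 0.77 (limma adjusted p = 0.0317). Only Fitm1 of the 5 kept its call without each array in turn. Ldah lost it without knockout replicate 1 or 2 (adjusted p up to 0.0625). Hsd17b13 lost it without any 1 of these and of WT replicates 1 and 2 (up to 0.0878), and Rnf213 without any knockout replicate or WT replicate 1 (up to 0.112). Bscl2, which encodes seipin and was named after its values were seen, lost its fall without any 1 of the 6 arrays (up to 0.14). Centred on the poly-A controls, Hsd17b13 was at -0.23 and Rnf213 at 0.02, and Rnf213 also lost its call with its probe sets averaged.

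Triglyceride synthesis genes also split. Of 13 tested, 2 rose, 2 fell and 9 did not pass (median 0.06). The phosphatidate phosphatase gene Lpin2 rose 2.41-fold, with 10.12, 10.12 and 9.47 in knockout and 8.99, 8.28 and 8.62 in WT (limma adjusted p = 0.00799). Of the enzymes that complete triglyceride, Dgat2 fell by 0.85 (SE 0.14, limma adjusted p = 0.0059) and Dgat1 rose by 0.48 (SE 0.14, limma adjusted p = 0.0464). The acyltransferase gene Agpat2 fell by 0.50 (limma adjusted p = 0.0331). Lpin2 and Dgat2 kept their calls without each array. Dgat1 lost its call without any 1 of 5 arrays, all but knockout replicate 3 (adjusted p up to 0.145), and was at -0.27 on the poly-A scale, and also lost it with no filter or with quantile normalization. Agpat2 lost its call without any 1 of replicates 1 and 2 of either genotype (up to 0.11) and when centred on hepatocyte markers.

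In the list for very low density lipoprotein assembly, 3 of 11 genes fell, 2 rose and 6 did not pass (median -0.21). Mia2, which helps export large lipoprotein cargo from the endoplasmic reticulum, fell by 1.36 log2 (SE 0.17, limma adjusted p = 0.00168) and Sar1b, a GTPase of the same step, by 0.73 (SE 0.10, limma adjusted p = 0.00295). The apolipoprotein gene Apoa4 rose 3.96-fold (limma adjusted p = 0.00825) and Angptl4, an inhibitor of lipoprotein lipase, 1.91-fold (limma adjusted p = 0.013). Angptl4 lost its call without knockout replicate 1 or 2 (adjusted p up to 0.0584), and on the poly-A scale, at 0.19 (limma adjusted p = 0.483). Apoe, named after its values were seen, fell by 0.25 (limma adjusted p = 0.0331). It lost its call without any 1 of the 6 arrays (up to 0.108). The Apoe call was also lost with no filter, median centring, centring on hepatocyte markers or no intensity trend. The probe sets of Apoa4 and Angptl4 are of the kinds that can read related transcripts.

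Of 13 transcription regulators of lipid storage, 3 rose, 1 fell and 9 did not pass (median -0.07). Pparg, which drives storage genes, read 6.28, 6.33 and 6.31 in knockout and 5.37, 5.23 and 5.61 in WT, 1.87-fold higher in knockout (limma adjusted p = 0.00336). Centred on the poly-A controls it was at 0.15 and lost its call (limma adjusted p = 0.578). Mlxipl (ChREBP), the sugar-sensing activator of lipid synthesis, fell by 1.28 log2 (SE 0.24, limma adjusted p = 0.00951). Foxo1, a driver of the fasting response, rose by 1.20 (limma adjusted p = 0.0169) and its co-activator partner Ppargc1a by 1.66 (SE 0.46, limma adjusted p = 0.04). Foxo1 lost its call without knockout replicate 1 or 2 (adjusted p up to 0.0673), on the poly-A scale, at 0.45 (limma adjusted p = 0.0918), and with its probe sets averaged. Ppargc1a lost it without either of these or WT replicate 1 or 2 (up to 0.118).

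**Figure D3:**
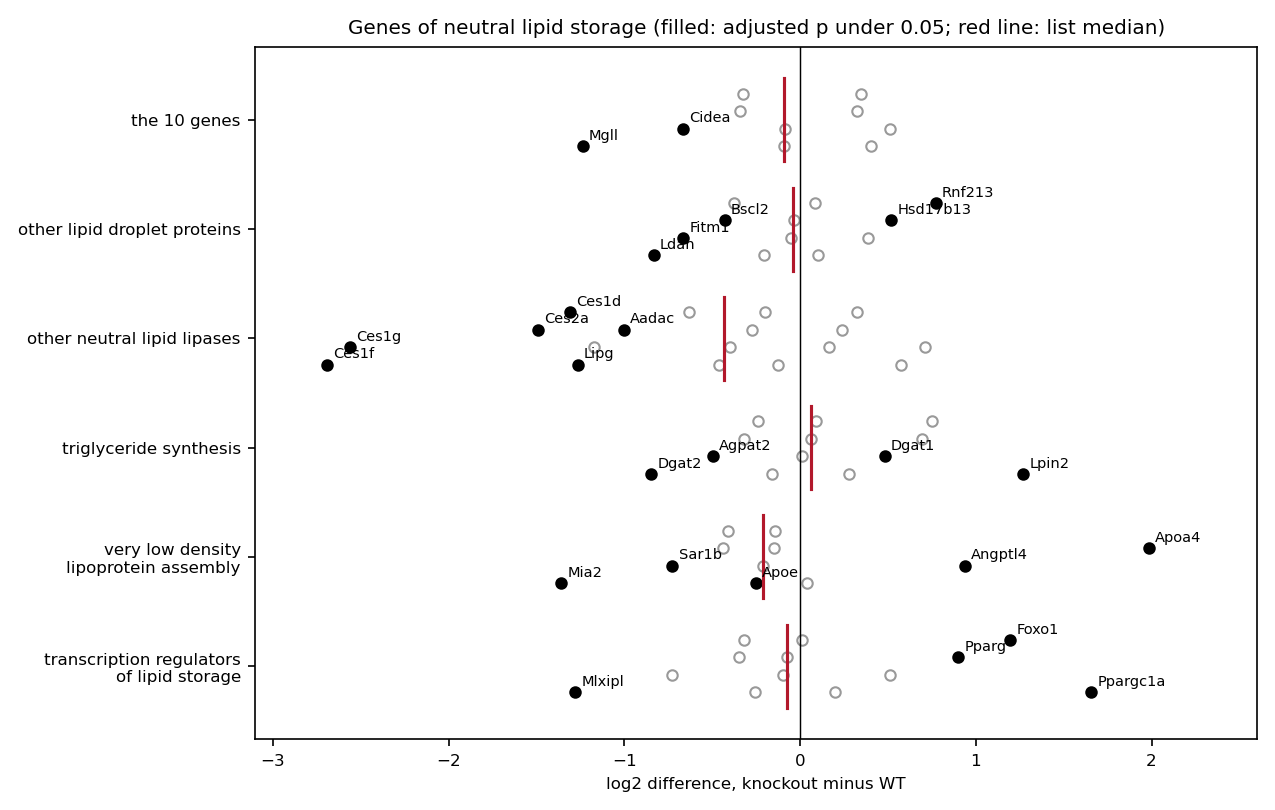
Log2 difference, knockout minus WT, of each tested gene by its brightest probe set, in the 10 genes and in 5 lists of related genes; filled points passed an adjusted p of 0.05 and red lines are list medians. The other lipases have the lowest median, -0.43, and hold the 2 lowest points of the plot, Ces1f and Ces1g.

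Markers of cells with droplets of their own were read beside the perilipins. Of markers of lipid-laden macrophages, 5 of 6 tested rose, among them Gpnmb by 3.76 log2, Cd9 by 1.58 and the fatty acid transporter gene Cd36 by 1.21 (limma adjusted p of 0.00787 or lower). Centred on the poly-A controls, Cd36 was at 0.46 and lost its call (limma adjusted p = 0.085). Only 3 of the 5 calls were kept without each array in turn. Trem2 and Fabp5, named after their values were seen, lost theirs without knockout replicate 1 or 2 (adjusted p up to 0.0539 and 0.111). Trem2 also lost its call on the poly-A scale, at 0.10 (limma adjusted p = 0.713), and with its probe sets averaged. Of macrophage markers at large 4 of 11 rose and 2 fell, with Marco, Lyz2 and Cd14 higher by 3.02, 2.70 and 3.97. The 2 that fell, named after their values were seen, mark resident Kupffer cells: Clec4f was lower by a factor of 7.04 (limma adjusted p = 0.00205) and Vsig4 by a factor of 4.94 (limma adjusted p = 0.000699). The other 5 did not pass and were also named after their values were seen. Adgre1 differed by 0.30, Csf1r by 0.33, C1qa by -0.08, C1qb by 0.13 and C1qc by 0.22. The mean of all 11 macrophage markers was 8.25 to 8.41 in knockout arrays and 7.49 to 7.95 in WT arrays. Of neutrophil markers all 9 tested rose, S100a8, S100a9 and Ngp by 5.17, 4.94 and 4.76.

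Adipocytes were not visible by their defining markers, since Adipoq and Lep were under the filter in level, as was Cidec. Of the 3 adipocyte markers tested, Fabp4, which macrophages also express, rose by 2.56, while Lipe and Retn differed by -0.27 and -0.05 without passing (limma adjusted p = 0.126 and 0.861). The mean of all 3 tested adipocyte markers was 6.36 to 6.60 in knockout and 5.53 to 5.90 in WT. The mean of 4 brown adipocyte markers was 4.39 to 5.02 in knockout and 4.06 to 4.58 in WT, with overlap. Only 1 was called, Ppargc1a, higher by 1.66. Ucp1, Dio2 and Cox7a1 differed by -0.36, -0.04 and 0.29 without passing, Dio2 being named after its values were seen. Stellate cells, which store retinoids in droplets, had 2 of 8 markers that fell, Reln by 0.64 log2 and Lrat by 1.24, and 1 that rose, Pdgfrb by 0.55. The mean of all 8 stellate cell markers was 7.28 to 7.44 in knockout arrays and 7.47 to 7.75 in WT arrays. Lrat lost its call without either of knockout replicates 1 and 2, and without WT replicate 2 (adjusted p up to 0.0794), and Pdgfrb without any 1 array but knockout replicate 3 (up to 0.109), and Pdgfrb was at -0.20 on the poly-A scale. Of hepatocyte markers, 3 of 8 fell, Serpina1c by 0.49, Ttr by 0.29 and Asgr1 by 0.32. Ttr lost its call without knockout replicate 2 or WT replicate 1 or 2 (up to 0.0774), and Asgr1 without any 1 array (up to 0.126).

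**Figure D4:**
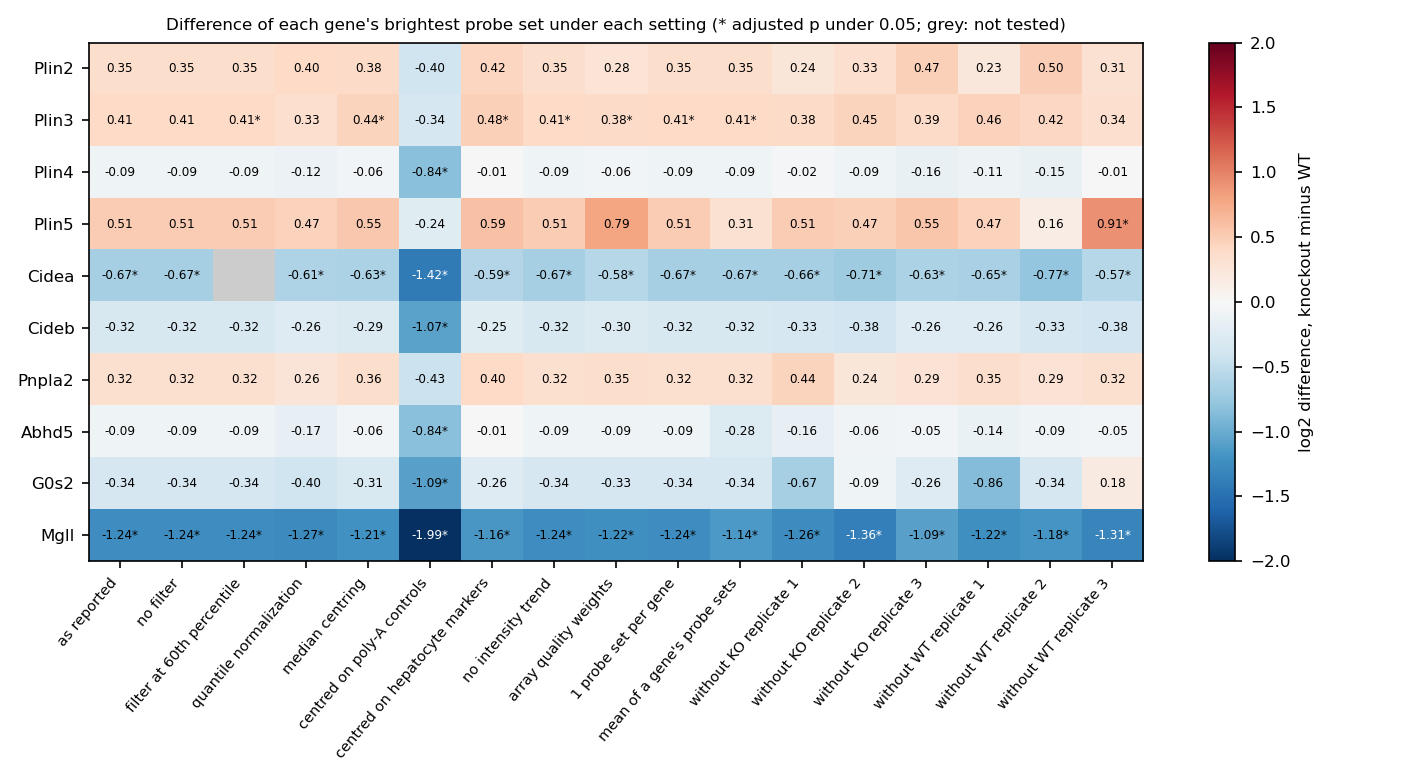
Log2 difference, knockout minus WT, of each gene's brightest probe set (rows) as reported and under 16 other settings (columns), with an asterisk at an adjusted p under 0.05. Mgll passes in every column, at -1.09 to -1.99, and the poly-A column is shifted down by 0.75 for every gene.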

How the data were processed

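Liver RNA of 3 S1P lyase knockout and 3 WT mice was labelled with biotin by Affymetrix's procedure (labels' protocols). The authors deposited 1 log2 value per probe set and array, from 1.68 to 14.3. That the base is 2 was settled from this range. MAS5 was used, per the submitters' processing notes, which give neither its version nor its role. How background and scale were handled is not stated, and no detection calls were used, so a dim value cannot be told from background.

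The test covered 27022 probe sets, after removal of 64 controls and of those with a mean over 6 arrays below 3.58 log2, the 40th percentile. Annotation gave 34958 probe sets 1 symbol, 932 several and 9211 none. Knockout was set against WT with limma (version 3.58.1, R 4.3.3; lmFit, eBayes with intensity trend, two-sided, no covariates, Benjamini-Hochberg over all 27022), and "rose" and "fell" are used at an adjusted p under 0.05. Lists were counted by each gene's brightest tested probe set. Partner genes and array controls were compared by exact permutation tests in scipy 1.17.1. The fit was tested on simulated data.

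The members and lists were chosen with earlier results of these data known. All members are named, with up to 4 genes of each related list and up to 3 of each marker list by smallest adjusted p. Also named are the 3 genes nearest to the member with the smallest adjusted p. Exceptions are Bscl2, Lipg, Ces2a, Apoe, Clec4f, Vsig4, Adgre1, Csf1r, C1qa, C1qb, C1qc, Trem2, Fabp5, Dio2 and those in the closing part. The genes nearest to a member that rose were also to be named, and 0 rose. Alternatives were 2 other filters, 4 scalings, no trend, array weights, 2 ways of joining probe sets, and leaving out each array. Precision is limited by 3 arrays per group. List genes without a probe set of 1 symbol were not analysed here.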

Additional observations from a re-analysis of the deposited data

How the results depend on the processing

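Over 16 alternatives, the 15 tested member probe sets gave 228 comparisons, of which 205 kept direction and side of the threshold, 16 newly passed with their sign kept, 7 changed sign and 0 lost a call. Of the 7, 1 also passed, the dimmer Plin5 probe set centred on the poly-A controls (adjusted p = 0.0176). Cidea was not tested with the filter at the 60th percentile, so 1 member gene fell there. Centred on the poly-A controls, which lowers every difference by 0.75 and puts the median of all probe sets at -0.79, 619 probe sets were higher and 20409 lower in knockout, against 2722 and 2113 as reported, and 6 member genes were lower. On that scale the differences were -0.40 for Plin2, -0.34 for Plin3, -0.24 and -0.64 for the brighter and dimmer Plin5 probe sets and -0.43 for Pnpla2. Exactly 1 member gene was higher under 8 alternatives. It was Plin3 with the filter at the 60th percentile, with median centring, centred on hepatocyte markers, with no intensity trend, with array quality weights, with 1 probe set per gene and with a gene's probe sets averaged, and Plin5 without WT replicate 3. Probe sets lower numbered 1257 centred on hepatocyte markers, beside 3071 higher. With 1 probe set per gene 1400 were higher and 1082 lower, and with a gene's probe sets averaged 1258 and 1144, over fewer features. Leaving out 1 array gave 1472 to 2814 higher and 993 to 1825 lower, with 0 to 1 member genes higher and 2 to 2 lower. With 1 array left out, the dimmer Plin5 probe set ranged from -0.23 (without WT replicate 2) to 0.52, and G0s2 from -0.86 to 0.18 (without WT replicate 3). Within arrays, leaving out 1 array gave -0.23 to 0.73 for Abhd5 minus G0s2, 0.15 to 1.21 for Pnpla2 minus G0s2 and -0.60 to 0.34 for Plin2 minus Plin5, of which the last was 0.036 with a gene's probe sets averaged. The causes were not tested. No paired analysis was possible because the labels give the animals no shared replicate numbers.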

Other observations

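The WT livers differed among themselves in genes of fat storage and of the fasting response, as values chosen after they were seen. Pnpla3, a lipase relative of Pnpla2 that rises with feeding, read 4.43, 4.37 and 4.49 log2 in the 3 knockout livers and 3.97, 8.08 and 4.77 in the WT livers, so WT replicate 2 stood far above the other 5 arrays. Srebf1, which drives fatty acid synthesis, was 11.20 in that liver, against 10.15 and 10.39 in the other WT livers and 9.72 to 9.97 in knockout. Mlxipl was 9.62 there, against 8.93 and 8.59 in the other WT livers and 7.67 to 7.91 in knockout. The same liver had the lowest value of all 6 arrays for Plin5 (6.99), Foxo1 (6.94) and Ppargc1a (5.11). WT replicate 3 had the highest of all 6 for Plin5 (8.51) and G0s2 (8.75). When the animals last fed is not stated, and its part was not tested.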
